A study of Homo sapiens with 6 samples.

Results

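RNA levels of 10 genes that build the inner face of the nuclear envelope were compared between thyroid cancer cells with and without an siRNA against GDF15. The genes were the lamins LMNA, LMNB1 and LMNB2, the inner nuclear membrane proteins LBR, EMD, TMPO, SUN1, SUN2 and NEMP1, and the chromatin binding protein BANF1. They were taken by symbol from a table of 34738 genes, and all 10 were among the 11867 genes tested, those whose mean FPKM over the 6 libraries reached 1. FPKM is the number of sequenced fragments per kilobase of gene and scaled to the mapped fragments of the library.

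GDF15 is a secreted growth factor of the TGF-beta superfamily, and the study asked how its knockdown alters thyroid cancer cells, their senescence included. In the siGDF15 group an siRNA against GDF15 was delivered with Lipofectamine, and poly(A) RNA of both groups was sequenced as read pairs in 3 libraries per group. The methods describe the 3 libraries as biological replicates. They also call the NC group negative control cells and list a negative control siRNA, whereas the deposited design text speaks of a blank control, and the sources do not settle which of the descriptions holds. If NC cells received no siRNA, the effect of transfection and that of GDF15 knockdown cannot be told apart. The sample labels give KHM-5M, an established thyroid cancer line, for all 6 libraries, while a figure legend of the study names the line TPC-1. All libraries come from 1 cell line and 1 siRNA sequence, and the time between transfection and RNA extraction is not given in the sources used here.

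The lamina is a meshwork of intermediate filaments under the inner nuclear membrane. A-type lamins come from LMNA and B-type lamins from LMNB1 and LMNB2, and the membrane proteins tie this meshwork to chromatin on one side and to the cytoskeleton on the other. The lamina comes apart in mitosis and is rebuilt around the daughter nuclei. Loss of lamin B1 is widely used as a marker of senescent cells.

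Total counts were 67569576 to 68025163 in NC and 51738814 to 67793417 in siGDF15, where replicate 2 was the lowest. The FPKM of GDF15 was 22.4, 19.3 and 23.1 in NC and 10.8, 10.5 and 10.7 in siGDF15 (log2 fold change -0.92, SE 0.079, adjusted p = 2.4e-05 in edgeR's quasi-likelihood test), so the targeted gene was lower where the labels say it was knocked down. The knockdown was partial at the RNA level, with 52.9% of the NC level left. In this fit GDF15 itself was short of the log2 fold change of 1 that the study asks for. It reached that size with total count scaling (-1.02) and with limma on log2(FPKM + 0.1) (-1.01), and in no other alternative. The mitochondrially encoded genes took 6.39 to 6.78% of the counts in NC and 8.53 to 9.17% in siGDF15. Of 8 markers of thyroid follicular cells, 7 were in the table and 2, PAX8 and FOXE1, had a mean FPKM of at least 1 in both groups, while the defining gene TG was near 0. The summed FPKM of the list was 56.9 to 67.9 in NC and 80.3 to 83.6 in siGDF15, and PAX8 alone was at 54.3 to 64.9 and 77.5 to 80.4. All 5 epithelial markers were detected, with summed FPKM of 102 to 149 in NC and 126 to 136 in siGDF15. Of 5 leukocyte markers only CD68 had a mean FPKM of at least 1, PTPRC was near 0, and the list summed to 17.9 to 19.7 in NC and 16.6 to 18.6 in siGDF15. The 4 endothelial markers summed to at most 0.198. Fibroblast markers, 4 of 5 at a mean FPKM of at least 1, summed to 16.4 to 22.6 in NC and 17.2 to 20.6 in siGDF15. What part the mitochondrial share or the PAX8 level had in the results below was not tested.

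The stretches upstream of the annotated start are shown for NEMP1, LBR, LMNB1 and LMNB2, the 4 genes with the largest changes in the comparison that follows, and for EMD, the gene that was not called. They come from RefSeq (GRCh38.p14), which gave 15 windows of 250 bases before an annotated start for 9 of the 10 genes. SUN1 had none. Each window was cut where an exon of its own gene in GENCODE release 29 began. Capitals mark matches, on either strand, to letters known from promoters of cell cycle genes: the CCAAT box (CCAAT), the cell cycle homology region (TTTGAA) and E2F sites (TTTCCCGC, TTTGGCGC, TTTCGCGC or TTTGCCGC). The NEMP1 stretch lies at chr12:57078792-57079041 and is read on the minus strand, as are LBR at chr1:225428926-225429071 and LMNB2 at chr19:2456997-2457209. The deposited bounds of NEMP1, chr12:57055643-57088063, include its stretch, which is thus upstream of the RefSeq start but not of the deposited start. The LMNB1 stretch at chr5:126776373-126776622 and the EMD stretch at chrX:154379045-154379196 are read on the plus strand.
NEMP1: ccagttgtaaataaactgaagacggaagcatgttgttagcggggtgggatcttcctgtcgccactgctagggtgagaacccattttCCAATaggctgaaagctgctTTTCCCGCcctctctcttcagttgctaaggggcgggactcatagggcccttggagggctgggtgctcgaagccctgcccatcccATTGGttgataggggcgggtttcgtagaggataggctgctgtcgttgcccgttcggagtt
LBR: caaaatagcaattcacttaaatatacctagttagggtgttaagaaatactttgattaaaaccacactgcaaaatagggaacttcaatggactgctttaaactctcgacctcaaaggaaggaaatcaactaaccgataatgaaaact
LMNB1: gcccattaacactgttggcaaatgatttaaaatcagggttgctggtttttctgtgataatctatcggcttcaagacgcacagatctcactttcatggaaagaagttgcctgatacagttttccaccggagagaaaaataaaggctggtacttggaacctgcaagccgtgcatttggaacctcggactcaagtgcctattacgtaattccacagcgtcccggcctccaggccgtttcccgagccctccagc
LMNB2: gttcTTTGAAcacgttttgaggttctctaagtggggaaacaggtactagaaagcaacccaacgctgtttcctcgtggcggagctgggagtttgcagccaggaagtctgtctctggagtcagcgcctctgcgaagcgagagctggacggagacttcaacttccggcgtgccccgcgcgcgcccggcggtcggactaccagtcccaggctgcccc
EMD: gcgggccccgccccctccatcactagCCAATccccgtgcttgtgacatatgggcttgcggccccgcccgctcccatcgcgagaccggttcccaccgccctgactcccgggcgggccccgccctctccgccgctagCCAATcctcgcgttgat

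The NEMP1 stretch held 2 CCAAT boxes and 1 E2F match, and the LMNB2 stretch held 1 TTTGAA. EMD, whose RNA was not called as changed, held 2 CCAAT boxes. No match was found in the LBR stretch or in this LMNB1 stretch, and the other LMNB1 window, inside an exon of a longer LMNB1 transcript and not printed, held 1 CCAAT box. Over all windows of the 9 genes, CCAAT was present for 6 genes, TTTGAA for LMNB2 and SUN2, and an E2F match for LMNA and NEMP1. Of all 27305 genes in the RefSeq table, 37.0% had a window with CCAAT, 16.1% one with TTTGAA and 3.40% one with an E2F match. By window, 7, 2 and 2 of the 15 held them, against 32.0%, 13.3% and 2.79% of all 35116 windows. The TMPO windows overlap and hold the same CCAAT boxes, so this stretch counts more than once among the 7. A match of letters is a description of the sequence and not evidence of binding.

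Of the 10 genes, 9 were lower in siGDF15, 0 were higher and 1, EMD, was not called. In the main edgeR fit, in DESeq2 and in limma on log2(FPKM + 1), no gene of the 10 was higher at an unadjusted p under 0.05 either. EMD missed that limit only narrowly in edgeR and DESeq2, and by a wide margin in limma. With libraries scaled to equal medians, or without NC replicate 3, edgeR called EMD higher, so the absence of any rise depended on the processing. Under these settings 4074 and 3606 of all tested genes were called higher, against 3565 in the main fit. Among all tested genes 61.4% were called in either direction at an adjusted p under 0.05, 31.4% lower and 30.0% higher, so a call by itself was common in these libraries. The genes fell by widely different amounts, from a log2 fold change of -1.80 for NEMP1 to -0.22 for LMNA. NEMP1, LBR, LMNB1 and LMNB2 passed the threshold of the study, which also asks for a log2 fold change of 1 or more, up or down. That threshold was passed downwards by 4.78% of all tested genes. The median log2 fold change of the 10 genes was -0.63, against 0.0026 over all tested genes. For 9 of the 10 genes the FPKM of every siGDF15 library lay below every NC library, as it did for 42.8% of tested genes. All 10 proliferation markers examined beside them, MKI67 and TOP2A among them, were lower as well, at log2 fold changes of -1.92 to -1.20. Whether the lower level of the envelope genes followed the lower level of the proliferation markers was not tested. In bulk RNA, fewer cells that express a gene and less RNA per cell cannot be told apart.

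**Figure D1:**
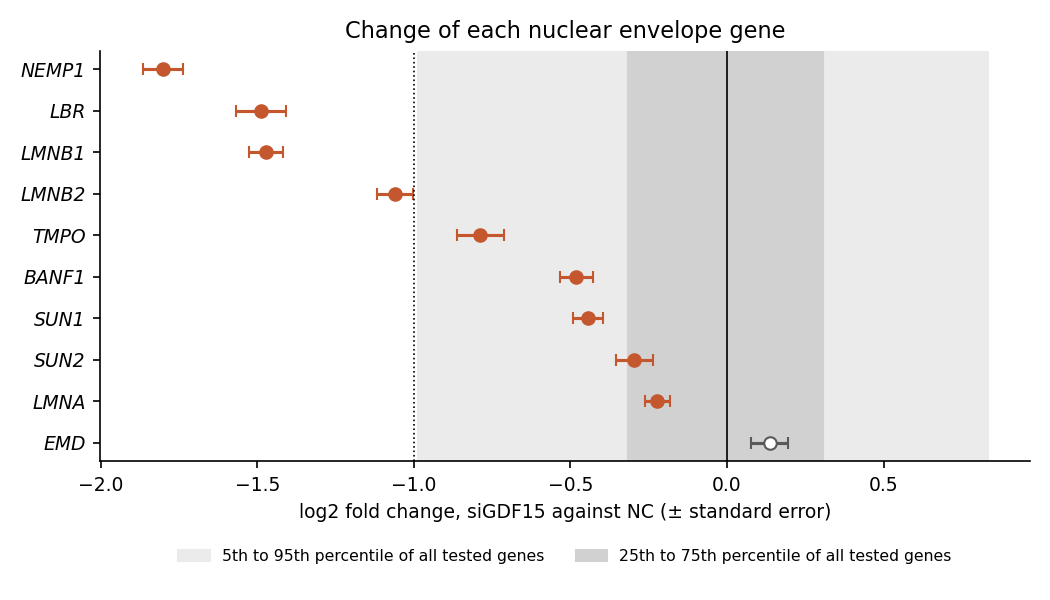
The log2 fold change of each gene in siGDF15 against NC (x axis, points) is plotted with its standard error (bars), over bands that span the 5th to 95th and the 25th to 75th percentile of all 11867 tested genes. Filled points passed an adjusted p under 0.05, the open point (EMD) did not, and the dotted line marks a log2 fold change of -1, which NEMP1, LBR, LMNB1 and LMNB2 lie beyond.

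The B-type lamins fell more than the A-type lamin. LMNB1 (ENSG00000113368, chr5:126776623-126837020 of GRCh38, plus strand), which encodes lamin B1, had an FPKM of 19.9, 20.3 and 19.3 in NC replicates 1 to 3 and of 6.97, 6.39 and 6.58 in siGDF15. Both groups were apart, and the spread within each was small beside the gap between them. The mean went from 19.9 ± 0.485 (SD, n = 3) to 6.65 ± 0.298 FPKM, and edgeR gave a log2 fold change of -1.47 (SE 0.055, adjusted p = 5.8e-07), or 36.0% of the NC level. Unless stated otherwise, fold changes and percentages of the NC level were fitted by edgeR to counts with TMM library scaling. They therefore lie above what the FPKM means of the same gene would give. Ordered from the lowest log2 fold change upwards, LMNB1 stood at place 238 of 11867.

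LMNB2 (ENSG00000176619, chr19:2427638-2456959, minus strand) encodes lamin B2, the second farnesylated B-type lamin. Its FPKM was 70.8, 66.2 and 74.7 in NC and 32.5, 31.1 and 30.8 in siGDF15. Here the NC libraries varied more than the siGDF15 libraries, but the lowest of them remained above the highest siGDF15 library. The log2 fold change was -1.06 (SE 0.057, adjusted p = 2.1e-06 in edgeR), which left 48.0% of the NC level.

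LMNA (ENSG00000160789, chr1:156082573-156140081, plus strand) encodes lamins A and C by alternative splicing, and the gene total used here does not separate them. Its FPKM was 91.1, 90.0 and 90.8 in NC and 71.4, 72.4 and 72.9 in siGDF15. Libraries of a group lay close together and the groups were apart, so a change of modest size passed the test: the log2 fold change was -0.22 (SE 0.039, adjusted p = 0.0013 in edgeR), or 85.7% of the NC level. This change lay inside the band that holds the middle 50% of tested genes, whose 25th percentile was -0.31. The log2 fold changes of LMNB1 and LMNB2 lay below the 5th percentile of -0.99.

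Because the lamins fell unequally, their proportions differed between the groups. The ratio of LMNA to LMNB1 FPKM within a library, which does not depend on how libraries are scaled, was 4.57, 4.43 and 4.69 in NC and 10.2, 11.3 and 11.1 in siGDF15. All siGDF15 libraries were above all NC libraries, with means of 4.57 ± 0.131 and 10.9 ± 0.574 (SD, n = 3), 2.38 times apart. The ratio of LMNB2 to LMNB1 was 3.55, 3.26 and 3.86 in NC and 4.67, 4.87 and 4.68 in siGDF15, again without overlap, a difference of 0.42 on the log2 scale. Lamin B1 RNA thus lost ground to both other lamins. Of the summed FPKM of the 3 lamin genes, LMNA held 50.1 ± 0.931% in NC and 65.4 ± 0.936% in siGDF15, LMNB2 39.0 ± 1.45% and 28.5 ± 0.722%, and LMNB1 11.0 ± 0.520% and 6.02 ± 0.242%. The sum itself went from 181 ± 4.21 to 110 ± 0.496 FPKM. Both the shares and the sum depend on the length by which each gene was divided, which is taken up below. The ratios are given as values per library, with no test.

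**Figure D2:**
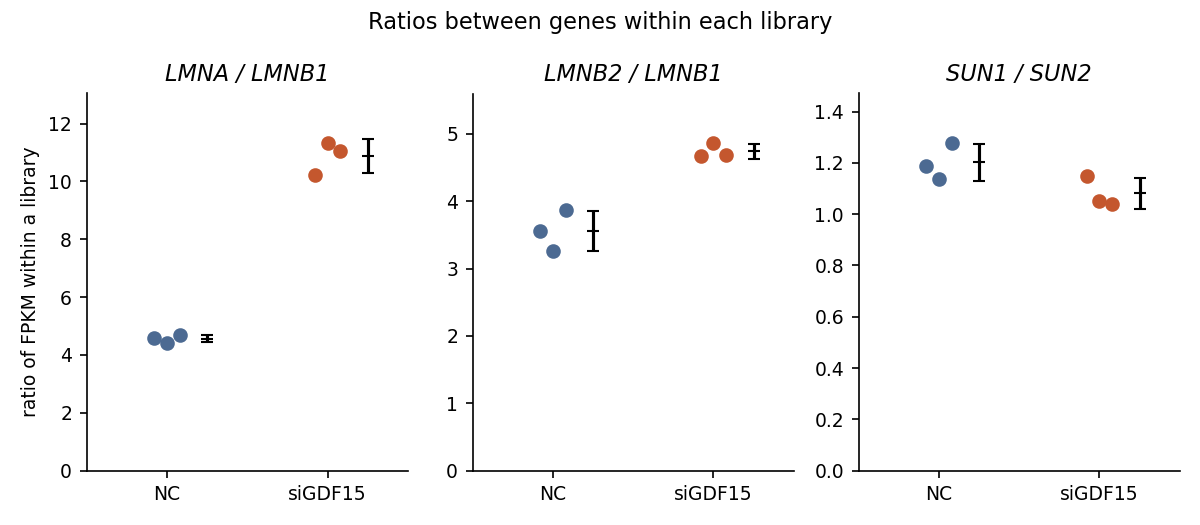
Each panel gives the ratio of the FPKM of 2 genes (y axis, no unit, from 0) in each NC (blue) and siGDF15 (orange) library, with the mean and SD of 3 libraries beside the points. LMNA to LMNB1 and LMNB2 to LMNB1 were higher in every siGDF15 library than in any NC library, while SUN1 to SUN2 overlapped.

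LBR, the lamin B receptor, is a multi-pass protein of the inner nuclear membrane that binds B-type lamins and heterochromatin and also acts as a sterol reductase. The gene (ENSG00000143815, chr1:225401502-225428855, minus strand) had an FPKM of 43.4, 47.7 and 39.2 in NC and 15.7, 13.8 and 13.6 in siGDF15. Although NC libraries spread over several FPKM, all lay well above the siGDF15 libraries. The mean went from 43.4 ± 4.28 to 14.4 ± 1.17 FPKM (SD, n = 3), with a log2 fold change of -1.49 (SE 0.080, adjusted p = 2.1e-06 in edgeR), or 35.7% of the NC level. The fitted changes of LBR and LMNB1 differed by less than 1 SE of either.

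NEMP1, a transmembrane protein of the inner nuclear membrane that contributes to the stiffness of the nuclear envelope, fell the most. For this gene (ENSG00000166881, chr12:57055643-57088063, minus strand) the FPKM was 11.7, 12.2 and 11.3 in NC and 3.33, 3.11 and 2.96 in siGDF15. No library of one group came near the other group. Its mean of 11.8 ± 0.439 FPKM in NC stood against 3.13 ± 0.182 in siGDF15 (SD, n = 3). The log2 fold change was -1.80 (SE 0.065, adjusted p = 5.2e-07 in edgeR), or 28.7% of the NC level, which put it at place 80 of 11867 from the lowest. The lowest count of any of the 10 genes in any library, 1030, was that of NEMP1 in siGDF15 replicate 2, so none of the comparisons rested on few reads.

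**Figure D3:**
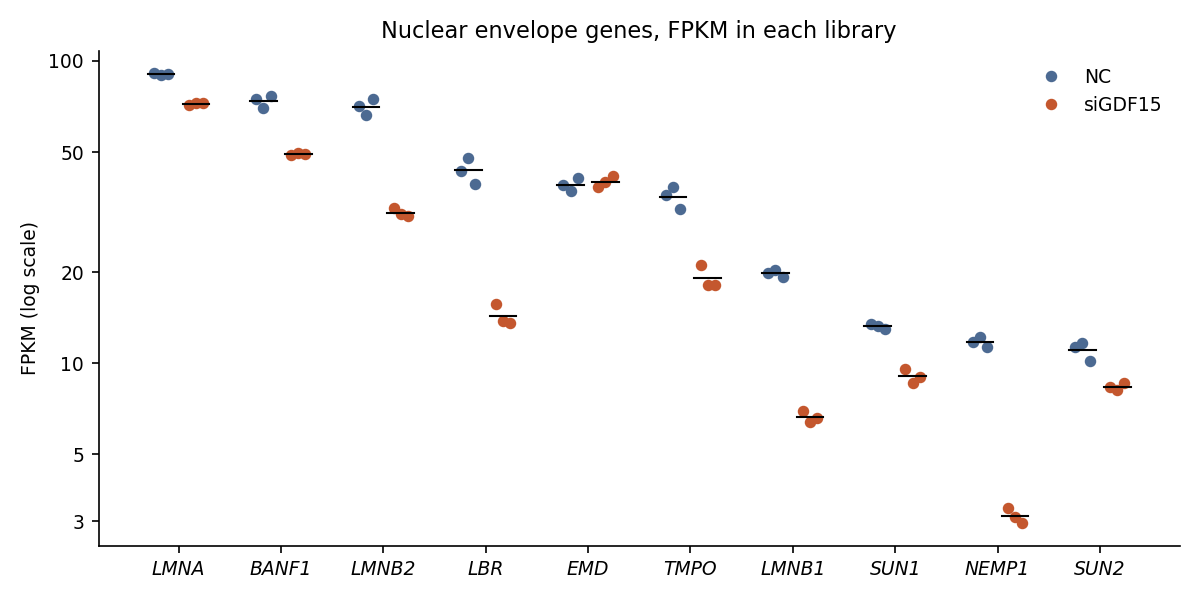
The FPKM of each gene (y axis, log scale) is plotted for the 3 NC (blue) and 3 siGDF15 (orange) libraries, with genes ordered by their NC mean and lines at the group means. For 9 genes every siGDF15 library lies below every NC library, with the widest gap at NEMP1, and for EMD the groups overlap.

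TMPO, EMD and BANF1 belong to one chromatin tether: TMPO and EMD encode proteins with a LEM domain, and BANF1 encodes the small DNA binding protein to which the LEM domain binds. TMPO (ENSG00000120802, chr12:98515579-98550351, plus strand) encodes the lamina-associated polypeptides 2, of which some are membrane proteins and one is nucleoplasmic, and the gene total cannot separate these isoforms. Its FPKM was 36.1, 38.2 and 32.4 in NC and 21.1, 18.2 and 18.2 in siGDF15. Again the groups were apart, and siGDF15 replicate 1 was the highest of its group. With a log2 fold change of -0.79 (SE 0.076, adjusted p = 4.2e-05 in edgeR) TMPO held 57.9% of its NC level. A gene on the opposite strand, TMPO-AS1, overlaps its start and was at 1.80 to 2.29 FPKM in NC and 0.881 to 1.28 in siGDF15. The library kit marks strand, but the strand setting of the counting is not given in the sources used here, so reads in the shared stretch may have been assigned to either gene.

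BANF1 (ENSG00000175334, chr11:66002228-66004146, plus strand) cross-bridges DNA and helps gather chromosomes into a single nucleus at the end of mitosis. Its FPKM was 75.1, 70.0 and 76.4 in NC and 48.7, 49.8 and 49.1 in siGDF15. Here the siGDF15 libraries lay close together and below all NC libraries. The log2 fold change was -0.48 (SE 0.052, adjusted p = 8.2e-05 in edgeR), or 71.6% of the NC level. A listed pseudogene copy, BANF1P3, was at 1.60 to 1.82 FPKM over all 6 libraries and could take some reads of the parent gene.

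EMD (ENSG00000102119, X chromosome, 154379273-154381523, plus strand) encodes emerin, whose loss causes Emery-Dreifuss muscular dystrophy. It was the only one of the 10 whose groups overlapped, with an FPKM of 38.9, 37.0 and 41.1 in NC and 38.2, 39.7 and 41.8 in siGDF15. NC averaged 39.0 ± 2.04 and siGDF15 39.9 ± 1.80 FPKM (SD, n = 3). Its change of 0.14 on the log2 scale (SE 0.060) did not pass the test, with an adjusted p of 0.077 in edgeR, and it was past the threshold when libraries were scaled to equal medians (0.19, adjusted p = 0.030) or when NC replicate 3 was left out (0.18, adjusted p = 0.019). Emerin and the LAP2 proteins share the LEM domain, but EMD and TMPO RNA thus moved by different amounts, with fitted changes of 0.14 and -0.79.

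SUN1 and SUN2 span the inner nuclear membrane and join nesprins of the outer membrane, which connects the lamina to the cytoskeleton. SUN1 (ENSG00000164828, chr7:816615-874920, plus strand) had an FPKM of 13.5, 13.3 and 13.0 in NC and 9.60, 8.58 and 8.99 in siGDF15. SUN2 (ENSG00000100242, chr22:38733290-38755999, minus strand) was at 11.3, 11.7 and 10.2 FPKM in NC and 8.35, 8.15 and 8.64 in siGDF15. For both genes the groups were apart. The log2 fold change was -0.44 for SUN1 (SE 0.048, adjusted p = 8.1e-05 in edgeR), leaving 73.5% of the NC level. For SUN2 it was -0.30 (SE 0.058, adjusted p = 0.0024 in edgeR), leaving 81.5%. The ratio of SUN1 to SUN2 FPKM was 1.20 ± 0.0719 in NC and 1.08 ± 0.0601 in siGDF15 (SD, n = 3), with overlapping libraries, so unequal change of the pair was not shown. GTPBP1 lies on the opposite strand across the 3′ end of SUN2 and was not called.

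The order of the levels differed between the groups. In NC the mean FPKM ran from LMNA (90.6) over BANF1 (73.9), LMNB2 (70.6), LBR (43.4), EMD (39.0), TMPO (35.6), LMNB1 (19.9), SUN1 (13.3) and NEMP1 (11.8) to SUN2 (11.1). Neighbours whose libraries overlapped were BANF1 and LMNB2, LBR and EMD, EMD and TMPO, and NEMP1 and SUN2. In siGDF15 the order of mean FPKM was LMNA (72.2), BANF1 (49.2), EMD (39.9), LMNB2 (31.5), TMPO (19.2), LBR (14.4), SUN1 (9.06), SUN2 (8.38), LMNB1 (6.65) and NEMP1 (3.13), and only SUN1 and SUN2 overlapped. LBR, which was above EMD and TMPO on average in NC, was below both in every siGDF15 library by FPKM. By FPKM, 83.3% of tested genes were below LMNB1 in NC and 56.5% in siGDF15. For NEMP1 these shares were 70.9% and 31.7%.

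Levels set between genes depend on the length each was divided by. The ratio of count to FPKM lay within 5% of a fixed multiple of the joined length of all annotated exons for 77.4% of 11783 tested genes, and of the longest transcript for 11.4%, both by GENCODE release 29. For LMNA the joined exons were 2.19 times as long as the longest transcript, for TMPO 2.03 times and for SUN1 2.63 times, but for LMNB1 1.05 times, so FPKM places the first genes lower relative to LMNB1 than a level per transcript would. The length implied by count and FPKM missed the joined exons by more than 5% for LMNA, LBR, BANF1 and SUN2. For LMNA it was 8132 bases against 6985, so 2.19 understates its step from FPKM to a level per longest transcript. In CPM per kilobase of the longest transcript, LMNA was at 256 ± 2.56 and LMNB1 at 23.0 ± 0.506 in NC, a ratio of 11.1 of the means, and the ratio was 26.5 in siGDF15. On this scale LMNB1 moved from place 7 to place 9 of the 10 genes in NC, while LMNA stayed first and BANF1 second. In siGDF15 LMNB1 was at place 9 and NEMP1 at place 10 on this scale, the same places as in NC, so the fall of both in the FPKM order between the groups did not appear here. The mean of LBR was already below that of TMPO in NC (72.0 ± 6.88 against 78.9 ± 6.29 CPM per kilobase, within their spread), and it remained above EMD in NC and below it in siGDF15. In the same unit LMNB2 was at 90.2 in NC and 40.3 in siGDF15, and in siGDF15 LMNA was at 204 and LMNB1 at 7.72. LMNA thus held a larger share of the lamins than by FPKM in both groups, and LMNB1 and LMNB2 smaller ones. The lamin sum fell by a smaller proportion than by FPKM. Fold changes of a single gene between the groups do not depend on the length, but the lamin shares and the lamin sum do.

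Other genes of the envelope moved in both directions. Of 23 further genes, among them LEM domain proteins, torsins and nesprins, 22 were in the table and 17 were tested, and of these 8 were lower, 1 was higher and 8 were not called, with a median log2 fold change of -0.10. Over all tested genes 31.4% were lower and 30.0% higher, and the difference between this list and the 10 genes was not tested. NEMP2, the paralog of NEMP1, was the one past the threshold of the study, with an FPKM of 1.76, 2.09 and 1.81 in NC and 0.914, 0.789 and 0.801 in siGDF15 (log2 fold change -1.07, SE 0.111, adjusted p = 6.7e-05 in edgeR). The groups were apart for NEMP2, at levels below those of NEMP1. Its log2 fold change was -0.99 without NC replicate 2 and -0.65 with limma on log2(FPKM + 1), a scale that understates changes of low genes, both short of that threshold. The one that rose, named after its values were seen, was CTDNEP1, a phosphatase of the nuclear envelope (log2 fold change 0.17, adjusted p = 0.010 in edgeR), and this call was lost under total count scaling, without a filter, with limma, and without NC replicate 1 or siGDF15 replicate 3.

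Lamins made with a CAAX end pass through farnesylation, cleavage and methylation. Of the 5 genes of this pathway, 3 were lower, 1 was higher and 1, RCE1, was not called, with a median log2 fold change of -0.30, and none passed the threshold of the study. ICMT, the methyltransferase, had a log2 fold change of -0.56 (adjusted p = 0.00015) and ZMPSTE24, the protease that cuts prelamin A, one of -0.50 (adjusted p = 0.00093), both in edgeR. FNTA, the alpha subunit of farnesyltransferase, rose by 0.34 (adjusted p = 0.00062 in edgeR), while its partner FNTB was lower at -0.30 (adjusted p = 0.036 in edgeR). The FNTB call was lost with equal medians and without NC replicate 1, NC replicate 2, siGDF15 replicate 1 or siGDF15 replicate 3. The pathway genes thus did not move in 1 direction, and neither did all tested genes, of which 31.4% were lower and 30.0% higher.

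Among 9 binding partners and related enzymes, 6 were lower, 2 were higher and 1, the deacetylase HDAC3, was not called, with a median log2 fold change of -0.39. The shares over all tested genes were 31.4% lower and 30.0% higher. VRK1, the kinase that phosphorylates BANF1 and releases it from DNA, was at 1.51, 1.40 and 1.54 FPKM in NC and 0.601, 0.525 and 0.571 in siGDF15 (log2 fold change -1.28, adjusted p = 2.1e-06 in edgeR). CBX5, a heterochromatin protein that binds LBR, was at 14.3, 15.4 and 14.0 FPKM in NC and 6.93, 6.21 and 6.34 in siGDF15 (log2 fold change -1.06, adjusted p = 1.8e-06 in edgeR). Both were apart between the groups and past the threshold of the study, but VRK1 was at -0.67 with limma on log2(FPKM + 1). The 2 that rose, named after their values were seen, were sterol reductases related to LBR: DHCR7 at a log2 fold change of 0.51 and TM7SF2 at 0.55. LBR, which shares the reductase fold with them, went the opposite way at -1.49. The call of TM7SF2 (adjusted p = 0.041 in edgeR) was lost under total count scaling, with lower filters, with limma, and without NC replicate 1 or any one siGDF15 library.

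**Figure D4:**
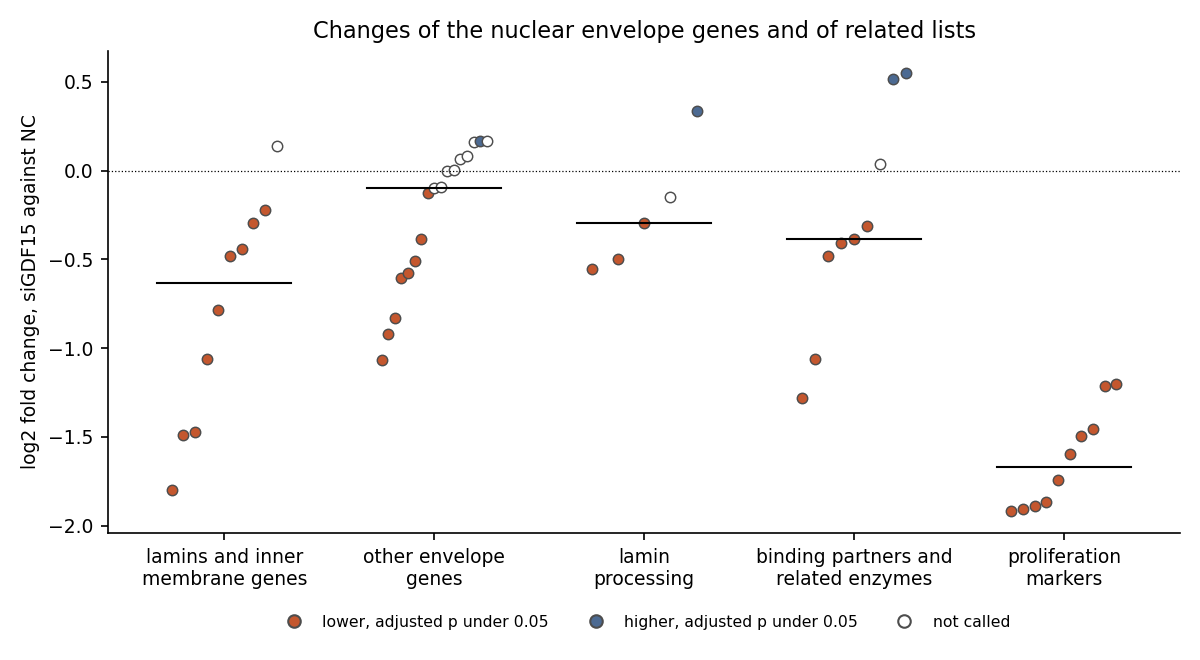
Each point is the log2 fold change (y axis) of 1 tested gene in siGDF15 against NC, grouped into the 10 lamins and inner membrane genes and 4 related lists, with lines at the list medians of -0.63, -0.10, -0.30, -0.39 and -1.67. Orange and blue points passed an adjusted p under 0.05 downwards and upwards, and all 10 proliferation markers lie lower than LMNB2.

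LMNB1 and LMNA were also compared with all other tested protein-coding genes, 10544 in number, by their course over the 6 libraries, as the root mean square difference of log2 CPM after each gene was centred on its own mean. The genes closest to LMNB1 were CHTF18, a clamp loader subunit of replication (0.025, log2 fold change -1.45), DIAPH3, a formin (0.028, -1.47), and INCENP, a subunit of the chromosomal passenger complex (0.034, -1.53). Closest to LMNA were CLIC1, an intracellular chloride channel protein (0.010, -0.23), UBE2D3, a ubiquitin conjugating enzyme (0.014, -0.24), and MCL1, an inhibitor of apoptosis (0.016, -0.22). With only 6 libraries in 2 groups, genes with a change of like size come out as alike.

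**Figure D5:**
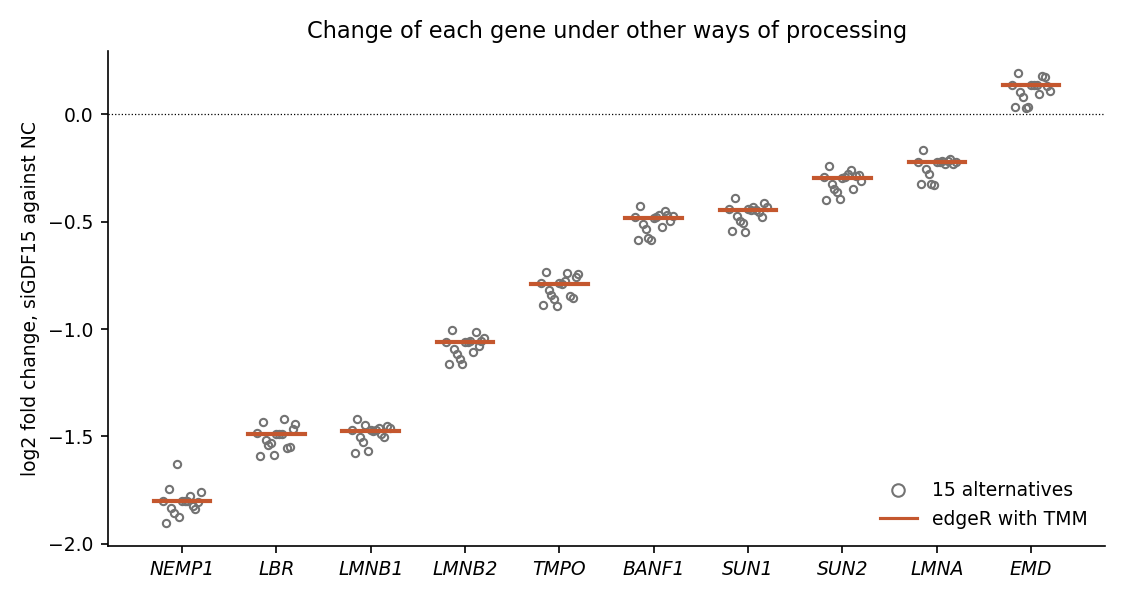
The log2 fold change of each gene (y axis) is shown for edgeR with TMM scaling (orange line) and for 15 other ways of processing (circles). The 9 genes called lower stay below 0 in all 15, and EMD stays above 0, at 0.031 to 0.19.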

How the data were processed

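Poly(A) RNA in 6 libraries, 3 NC and 3 siGDF15 as the sample labels give them, was sequenced on an Illumina NovaSeq instrument. The submitters' processing notes name fastp, HISAT2, StringTie, edgeR and the build GRCh38, and versions and annotation release are not given in the sources used here. The authors deposited FPKM values and expected counts for each library in 1 table. The deposited expected counts are whole numbers derived from coverage, in which 4 was the most frequent value from 1 to 20, so 1 read pair is worth about 4 counts and the counts overstate depth. Counting error is therefore larger than the counts imply, and dividing by 4 was an alternative.

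Counts were tested with edgeR 4.0.16 (quasi-likelihood, TMM, two-sided, Benjamini-Hochberg over 11867 genes) in R 4.3.3, and standard errors were derived from the F statistic. Alternatives used DESeq2 1.42.0, limma 3.58.1, other scalings and filters, a pseudocount of 1 or 0.1, the replicate number as a block, and each library left out. The script was tested on simulated data. From the related lists, genes past the threshold of the study were named, or otherwise the 3 with the smallest adjusted p. The genes and lists were chosen with earlier results of these data known, so no p-value was given for a list. The p-values measure the spread between these libraries of 1 line. Figures were drawn with matplotlib 3.10.9.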

Additional observations from a re-analysis of the deposited data

How the results depend on the processing

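Under all 15 alternatives the 9 genes called lower kept their direction and their side of the threshold. EMD was called higher, making 1 of the 10 genes higher in place of 0, with libraries scaled to equal medians (0.19) and without NC replicate 3 (0.18). Over its alternatives EMD ranged from 0.031 to 0.19, and from 0.095 to 0.18 with 1 library left out, with adjusted p of 0.019 to 0.64. With 1 library left out LMNB1 ranged from -1.50 to -1.45, LMNB2 from -1.11 to -1.01, LBR from -1.55 to -1.42 and NEMP1 from -1.84 to -1.76, and the number of the 10 genes called higher from 0 to 1. With total count scaling 2701 genes were called higher and 4679 lower, against 3565 and 3721 with TMM, and limma on log2 of FPKM plus 1 gave 2687 and 4653. Equal medians gave 4074 higher and 3228 lower, and leaving out NC replicate 3 gave 3606 and 3732. The median over all tested genes moved from 0.0026 to -0.099 with total counts and to 0.057 with equal medians, while that of the 10 genes was -0.74 and -0.58. Genes lower by a log2 fold change of at least 1 numbered 567, or 852 with a mean FPKM of at least 0.1 and 859 with no filter, and those higher 360, or 817, 800 and, with limma on log2 of FPKM plus 1, 131. Of the other envelope genes 0 were higher with total counts, no filter or limma, and 2 with equal medians, against 1, with a range of 0 to 2 when 1 library was left out. Of the binding partners 1 was higher with total counts, a lower or no filter, or limma, against 2, with a range of 1 to 2 when 1 library was left out. On raw counts the log2 differences of the ratios between the groups moved by less than the spread between replicates, although the ratios themselves depend on the length. The length of a gene cancels in such a difference, so this agreement was fixed in advance and is no check. For the same reason the length of the longest transcript, chosen as an alternative after seeing the data, changed levels and not differences. Replicate numbers did not pair the libraries: the correlations of deviations between same-numbered libraries were 0.028, -0.075 and 0.046, and with the replicate number as a block 6906 genes were called against 7286, with 9 of the 10 genes lower as before.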

Other observations

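The annotation column of the deposited table gave wider lists, looked at after the values of the 10 genes were known. Of 51 genes annotated to the nuclear inner membrane 41 were tested, and 34 of these were not among the 10 genes. Of the 34, 15 were lower, 9 were higher and 10 were not called, with a median log2 fold change of -0.11. Among all tested genes 31.4% were lower and 30.0% higher. NEMP2 was the one past the threshold of the study. The called gene with the highest fold change was TMEM120A, a multi-pass membrane protein first described at the nuclear envelope, whose FPKM was 9.64, 11.2 and 9.17 in NC and 16.1, 14.9 and 15.3 in siGDF15 (log2 fold change 0.73, adjusted p = 8.3e-05 in edgeR). Its groups were apart, and it moved against the direction of NEMP1 and LBR.

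Of 7 tested genes annotated to the nuclear lamina and not among the 10, 3 were lower, 1 was higher and 3 were not called. These counts stand beside 31.4% lower and 30.0% higher over all tested genes. SUV39H1, the histone H3 lysine methyltransferase of constitutive heterochromatin, was at 8.53, 9.46 and 9.52 FPKM in NC and 2.81, 2.81 and 3.58 in siGDF15, without overlap (log2 fold change -1.47, adjusted p = 8.8e-06 in edgeR). PCNA, which is also on the list of proliferation markers, was past the threshold of the study as well at -1.20. The gene that rose was CASK, a scaffold kinase, at 0.37.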
